A study of Mus musculus with 12 samples.

Results

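Cytosolic ribosomal protein genes were examined in liver RNA of 12 mice with hepatic fibrosis induced by CCl4, a solvent that injures hepatocytes. The 6 mice of the PZH group were injected with CCl4 into the abdomen 2 times a week and were given PZH into the stomach every day, and the 6 mice of the control group received the same injections and double-distilled water in place of PZH. PZH stands for Pien Tze Huang, a remedy of Chinese medicine that contains musk, ox gallstone and the root san qi. According to the methods of the study, all mice were male C57BL/6J mice, were 6 weeks old at the start and were killed in the eighth week, whereas the strain label reads C57BL/8. Mice without CCl4 are not analysed here, so the values compare PZH with water in injured liver only. The RNA came from whole liver tissue, so fewer cells of a type and less RNA per cell cannot be told apart. The members were the genes of the protein-coding table whose symbol starts with Rpl, Rps or Rplp followed by a digit, without the S6 kinases. The rule found 86 genes of 14188 and 196 of their transcripts among 29883. Of the 91 protein-coding genes with such a symbol in GENCODE M21, 5 were not in the table, namely Rpl10l, Rpl36-ps4, Rpl39l, Rpl3l and Rpl9-ps1.

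The ribosome translates mRNA into protein. Its small subunit reads the codons and its large subunit joins the amino acids, and each subunit is a core of ribosomal RNA covered with many small basic proteins, present once each except for the stalk proteins P1 and P2. The mRNAs of these proteins are among the most abundant of the liver, carry a tract of C and T at their start (the TOP motif), and are held or released for translation through the kinase mTOR and the RNA-binding protein LARP1. The members comprised 30 genes of the small subunit, 43 of the large subunit, the 3 stalk genes Rplp0, Rplp1 and Rplp2, 4 paralogs (Rpl7l1, Rpl22l1, Rpl36al and Rps27l) and 5 retrocopies, which are copies of an mRNA put back into the genome (Rpl9-ps6, Rpl10-ps3, Rpl36a-ps1, Rps12-ps3 and Rps27rt). The remaining member, Rps19bp1, encodes a nucleolar protein that binds RPS19 and is no ribosomal protein. Rpsa, Fau and Rack1 are among the genes whose products also sit on the ribosome but which fall outside the symbol pattern and are given with the related genes.

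The values are FPKM, the number of fragments of a transcript divided by its length and by the total of mapped fragments, and a gene value is the sum over its listed transcripts. The mean FPKM of a member over all mice had a median of 74.8, against 4.11 over all genes of the table, and 36 members exceeded 100 FPKM while 6 stayed under 10 FPKM. Rplp0, the anchor of the stalk, was the most abundant member, with 289 to 497 FPKM in the PZH group (median 364) and 403 to 529 in the control group (median 428). Rpl26, a protein at the exit of the peptide tunnel, followed with 223 to 381 FPKM (median 257) in PZH mice and 218 to 304 (median 236) in control mice, and Rps12 of the small subunit with 199 to 359 (median 242) and 211 to 290 (median 272). For all 3 genes the ranges of the groups overlapped. On this scale, which is per length, the listed levels of the ribosome's own genes ranged from 4.19 FPKM for Rpl21 to 408 FPKM for Rplp0, averaged over the 12 mice. The low end is uncertain, because Rpl21 has 57 near-identical copies in the annotation that could share its reads.

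The members together took a smaller share of the FPKM sum in most PZH mice than in control mice. Their share was 2.84, 2.26, 2.29, 1.96, 2.33 and 2.20% in PZH mice 1 to 6 and 2.66, 2.53, 2.33, 2.80, 2.69 and 2.98% in control mice 1 to 6, which gave 2.31% ± 0.292 (SD, n = 6) and 2.67% ± 0.221 (SD, n = 6). Mouse PZH 1 lay among the control mice, whereas the 5 other PZH mice, at 1.96 to 2.33%, lay below every control mouse, though PZH 5 at 2.325% and control mouse 3 at 2.335% were close. PZH 1 was the highest PZH mouse in 71 of the 86 members, compared with 24.1% of all genes with a mean of at least 1 FPKM. In the control group, mouse 6 was the highest in 40 members, compared with 24.2% of all genes with a mean of at least 1 FPKM. PZH 4 was the lowest PZH mouse in 51 members, and control mouse 3 the lowest control mouse in 47. For the lowest mouse, the share over all genes was not counted.

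**Figure D1:**
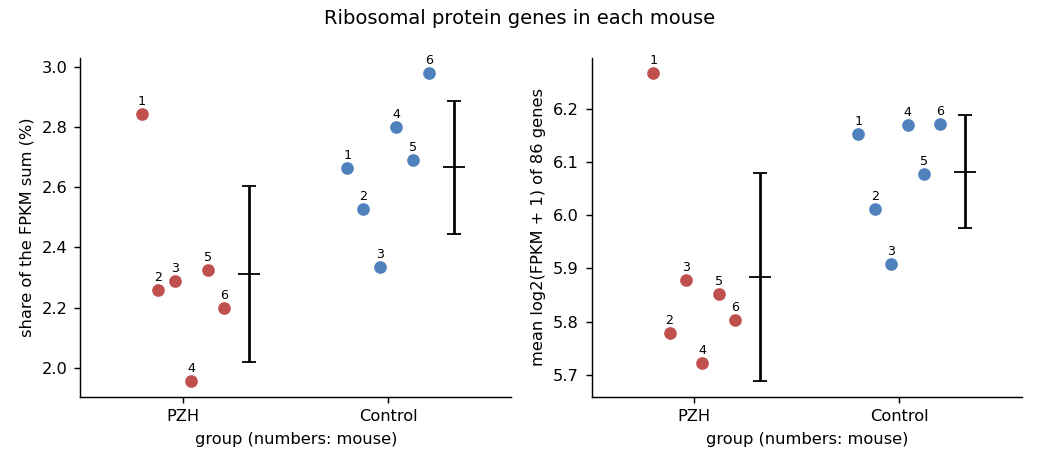
Left, share of the 86 genes in the FPKM sum of each mouse (%, y axis); right, their mean log2(FPKM + 1) in each mouse. Points are mice with their number, and the bar to the right of each group is the mean ± SD of 6 mice; PZH 1 stands at 2.84%, and the other PZH mice lie between 1.96 and 2.33%.

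PZH 1 also stood apart in the table as a whole. Its FPKM sum was the highest of the PZH mice, 370426 against 326060 to 346874 in the other 5, and its median-ratio scale factor the lowest of all mice, 0.856 against 0.914 to 1.02 in the other PZH mice and 1.04 to 1.12 in control mice. This factor is the median ratio of a mouse to the average mouse over transcripts above 0 in all mice, so it shows that a typical transcript was listed lower in PZH mice than in control mice. Division by it brings the typical transcript to the same level in all mice, and the counts of called genes are given with the values as deposited and after scaling, while single genes are given as deposited unless scaling is named. Liver was checked by its markers: Alb, the hepatocyte albumin gene, was the highest of 8 hepatocyte markers, and the sum of these 8 was 42255 to 58369 FPKM in PZH mice, highest in PZH 1, and 25063 to 38300 in control mice. The sums of the markers of other cells in PZH 1 and in the 5 other PZH mice were 499.9 against 345.7 to 532 for 7 macrophage and Kupffer cell markers, 21.1 against 14.7 to 129 for 8 other leukocyte markers, 85.7 against 100 to 141 for 6 stellate cell and fibroblast markers, 38.7 against 47.8 to 58.4 for 5 endothelial markers and 5.40 against 6.07 to 7.60 for 4 cholangiocyte markers. In control mice the same sums were 362 to 468, 18.8 to 64.5, 71.3 to 121, 53.3 to 61.4 and 11.9 to 18.8 FPKM. As deposited, 2 of 8 hepatocyte markers rose and 1 fell, 2 of 7 macrophage markers rose and 2 fell, 0 of 8 other leukocyte markers passed the test, 1 of 6 stellate cell markers rose and 2 fell, 2 of 5 endothelial markers fell and 1 of 4 cholangiocyte markers fell, while 12.7% of all genes rose and 32.1% fell. After scaling 4 hepatocyte markers rose and 0 fell, 3 macrophage markers rose and 1 fell, 1 other leukocyte marker rose and 0 fell, 1 stellate cell marker rose and 2 fell, and of the endothelial and of the cholangiocyte markers 1 each rose and 1 each fell, while 19.3% of all genes rose and 19.7% fell. The bile duct marker Epcam was listed at 0 in a control mouse, and no other marker was listed at 0. The part of these differences in the values of the members was not tested.

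With the values as deposited, 17 members fell and 3 rose at an adjusted p under 0.05, and 66 were not called. Together 20 members were called, and 44.8% of all genes. The falls were 19.8% of the members, while 32.1% of all genes were called lower in PZH mice. The rises were 3.49% of the members, while 12.7% of all genes were called higher. The median log2 fold change of the members was -0.22, against -0.11 over all genes and -0.17 over genes with a mean of at least 1 FPKM, and 68 of 86 members had a negative value. A 2-fold change with an unadjusted p under 0.05 in limma was reached by 0 members and by 4.02% of all genes, while 31 members had an unadjusted p under 0.05. After median-ratio scaling 7 members were called, and 39.0% of all genes: 4 members were higher (4.65%, with 19.3% of all genes) and 3 lower (3.49%, with 19.7% of all genes), the median member was at -0.04 and the median gene at -0.00, and 47 members had a negative value. The calls on both scalings coincided for 6 members, while 14 were called as deposited only and 1 after scaling only. Without PZH 1, 42 members were lower as deposited (48.8%, with 32.0% of all genes) and 19 after scaling (22.1%, with 21.7% of all genes), while 3 (13.3% of all genes) and 4 (20.0% of all genes) were higher. The median member was then at -0.29 as deposited and -0.14 after scaling, and the median gene at -0.10 and -0.01. Of the 17 falls with all mice, 16 were also called without PZH 1. The fit without PZH 1 is given because this mouse stood apart in the same values. It was the highest PZH mouse in 71 members, so leaving it out lowers their PZH mean by construction. The counts without PZH 1, here and below, are therefore no independent support for a fall.

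**Figure D2:**
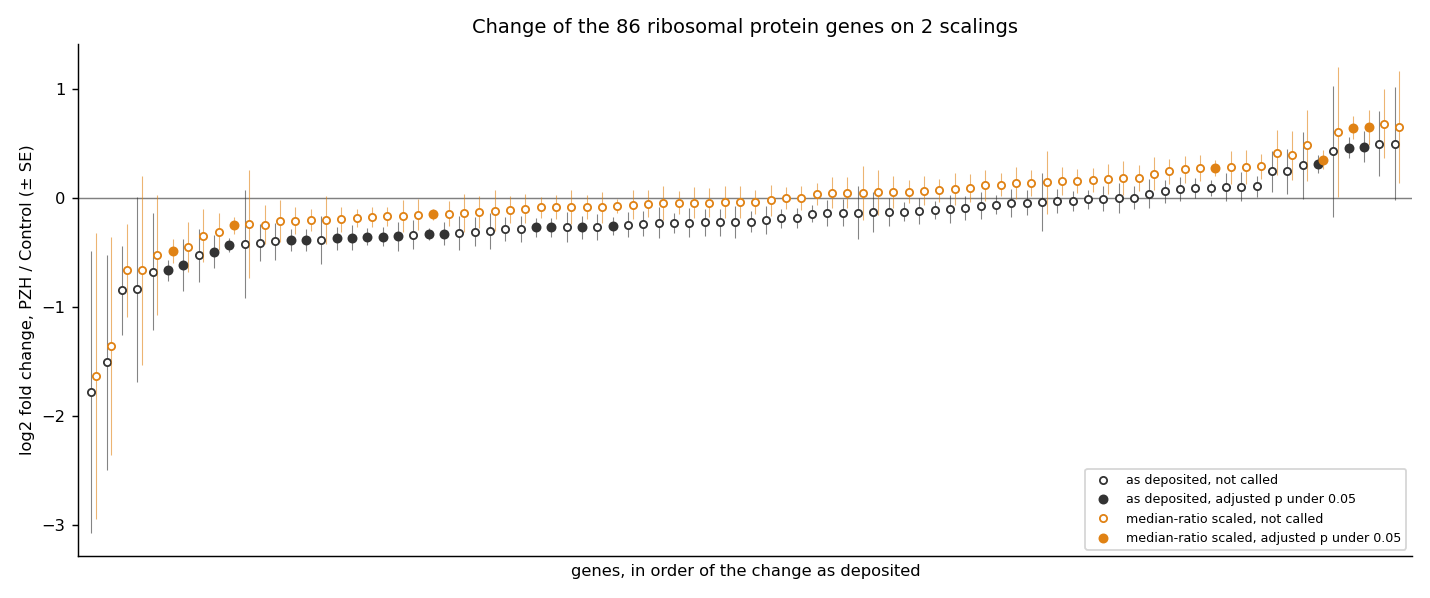
Log2 fold change of PZH over control (y axis, bars are the standard error, n = 6 mice per group) for each of the 86 genes (x axis, names not shown), in order of the values as deposited (black) and after median-ratio scaling (orange). Filled points passed an adjusted p of 0.05 in limma: 20 as deposited and 7 after scaling, and the widest bars belong to genes at or near 0 in some mice.

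Rpl41 showed the clearest rise. It encodes the smallest protein of the ribosome, a short basic chain of the large subunit whose coding sequence, read here from GENCODE M21 on GRCm38 for its main transcript with the start codon in capitals, is the following.
Rpl41: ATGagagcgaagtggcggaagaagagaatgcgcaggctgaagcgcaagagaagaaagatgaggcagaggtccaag
The gene lies on the minus strand of chromosome 10 from 128548114 to 128549305, and its coding sequence of 75 bases matched 4 other genes of the annotation nearly identically and could share reads with them. It stood at 179 to 275 FPKM in PZH mice (median 226) and at 154 to 169 in control mice (median 165). All 6 PZH mice lay above all 6 control mice, as deposited and after scaling. Groups without overlap and higher in PZH were found for 1 member, and for 6.46% of all genes as deposited and 10.8% after scaling. On the log2 scale Rpl41 was higher by 0.46 ± 0.10 (SE, adjusted p = 0.00214) as deposited and by 0.64 ± 0.11 (SE, adjusted p = 0.000497) after scaling. Its main transcript alone, Rpl41-201, gave 0.37 (adjusted p = 0.252). In PZH 4 Rpl41-201 was at 85.5 FPKM, below all other mice, and Rpl41-206 at 157 FPKM, against 21.9 to 66.8 in the other mice.

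Rpl36a, a large subunit protein near the site where tRNA leaves the ribosome, rose as well. Its gene lies on the X chromosome (134585654 to 134588062, plus strand), with 16.6 to 28.4 FPKM in PZH mice (median 20.5) and 10.98 to 20.9 in control mice (median 14.4). The groups overlapped through control mouse 2 at 20.9 FPKM. The difference on the log2 scale was 0.47 ± 0.14 (SE, adjusted p = 0.0167) as deposited and 0.64 ± 0.16 (SE, adjusted p = 0.00705) after scaling. The third rise, Rpl36a-ps1 on chromosome 14, was a retrocopy of Rpl36a at no more than 0.682 FPKM in any mouse, and added to Rpl36a it left the change at 0.48 (adjusted p = 0.0150). Rpl23, a protein of the factor-binding side of the large subunit, was at 48.3 to 58.7 FPKM in PZH mice and 42.6 to 52.8 in control mice, and was called after scaling only (0.27 ± 0.07, SE, adjusted p = 0.00901, against 0.09, adjusted p = 0.326, as deposited).

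Of the 17 falls, 3 were called on both scalings, and only 1 of these is an established component of the ribosome. Rpl28, a large subunit protein, was at 46.0 to 53.5 FPKM in PZH mice (median 48.8) and 58.1 to 65.7 in control mice (median 62.8). It fell by 0.33 on the log2 scale as deposited (SE 0.06, adjusted p = 0.000474) and by 0.15 after scaling (SE 0.05, adjusted p = 0.0324). Rpl7l1, a paralog of Rpl7 that acts in the assembly of the large subunit, was at 13.3 to 17.2 FPKM (median 14.95) against 19.9 to 22.0 (median 20.4), and fell by 0.43 (SE 0.06, adjusted p = 0.000173) and by 0.25 (SE 0.07, adjusted p = 0.0160) on the log2 scale. Rps19bp1, the nucleolar binding partner of RPS19, was at 6.96 to 10.7 FPKM (median 8.77) against 12.2 to 16.1 (median 14.8), and fell by 0.66 (SE 0.10, adjusted p = 0.000167) and by 0.49 (SE 0.11, adjusted p = 0.00359). The ranges of these 3 genes did not overlap between the groups as deposited, nor did that of Rps9 of the small subunit. Groups without overlap and lower in PZH were found for 5 members in all and for 17.9% of all genes, and after scaling for 0 members and 10.5% of all genes.

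**Figure D3:**
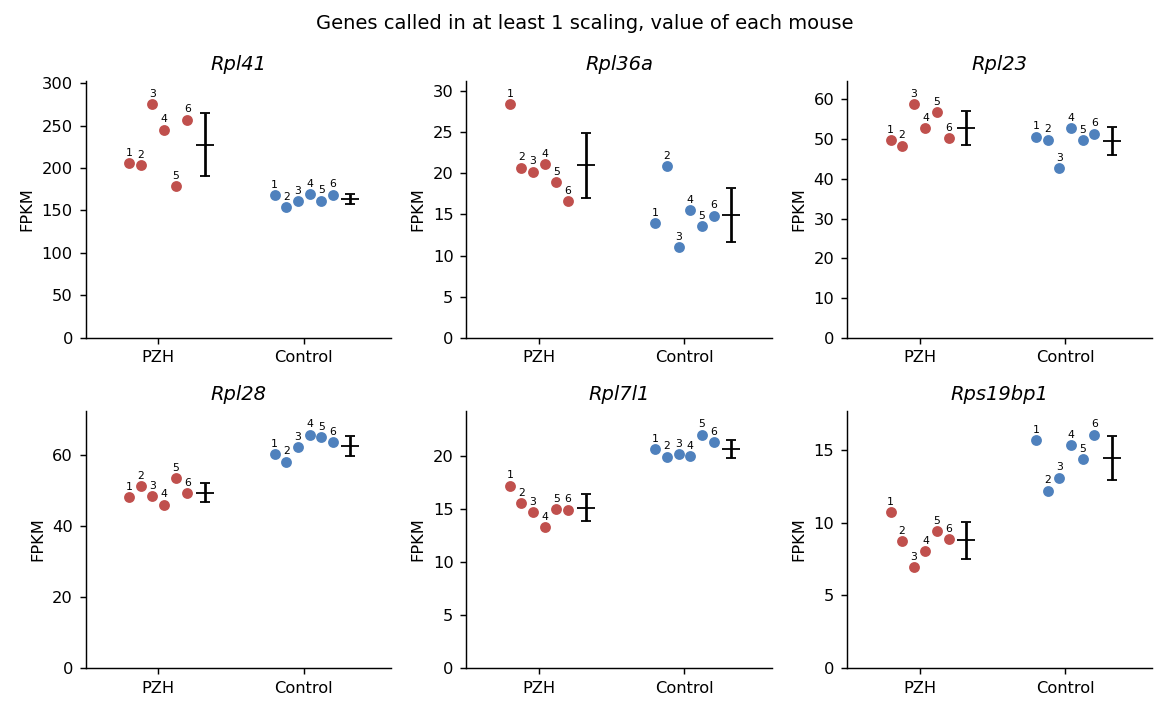
FPKM (y axis, from 0) of 6 genes called on at least 1 scaling, by group, with the number of each mouse beside its point and the mean ± SD of 6 mice to the right. Rpl41 is above the control range in every PZH mouse, and Rpl28, Rpl7l1 and Rps19bp1 are below it in every PZH mouse.

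The other 14 falls were called with the values as deposited only. In the large subunit they included Rpl10a, Rpl37, Rpl8, Rpl27, Rpl10, Rpl36, Rpl6 and Rpl15, with log2 fold changes from -0.62 for Rpl10a to -0.27 for Rpl15. Rpl10a was at 3.83 to 8.28 FPKM in PZH mice (median 7.26) and 6.35 to 15.5 in control mice (median 11.3), and its call (adjusted p = 0.0474) was lost without PZH 1 (adjusted p = 0.0536). In the small subunit they included Rps3 (-0.33, adjusted p = 0.0209) and Rps9 (-0.26, adjusted p = 0.0180), which encode proteins at the entry of the mRNA channel. The stalk gene Rplp2 (-0.37, adjusted p = 0.0188) and the retrocopy Rpl9-ps6 (-0.37, adjusted p = 0.0113) were also among them. Rplp2 differed from most members in that PZH 1 was its lowest mouse, at 30.1 FPKM against 35.15 to 49.6 in the other PZH mice and 48.1 to 56.1 in control mice. The partner of Rplp2 in the stalk, Rplp1, was at 196 to 302 FPKM in PZH mice and 206 to 317 in control mice (log2 fold change -0.07, adjusted p = 0.666), so its groups overlapped over almost their whole range. By subunit, 3 of 30 small subunit genes and 10 of 43 large subunit genes fell, with medians of -0.25 and -0.19 on the log2 scale, and 2 large subunit genes rose. After scaling the counts were 0 of 30 lower for the small subunit, and 1 lower and 3 higher of 43 for the large subunit. Without PZH 1, 17 of 30 small subunit genes (56.7%) and 18 of 43 large subunit genes (41.9%) fell as deposited. After scaling these were 8 (26.7%) and 7 (16.3%). The larger share of falls thus lay in the large subunit with all mice and in the small subunit without PZH 1. Beside these counts 32.1% of all genes fell as deposited and 19.7% after scaling, and without PZH 1 32.0% and 21.7%. Whether the subunits differ was not tested.

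Several members have roles outside the ribosome, and some of them, like the family as a whole, differed more without PZH 1. The median of all 86 members moved from -0.22 to -0.29 as deposited and from -0.04 to -0.14 after scaling when PZH 1 was left out. Rps6, the protein phosphorylated by the S6 kinases, was at 136 to 276 FPKM in PZH mice (median 150) and 167 to 264 in control mice (median 222). PZH 1, at 276 FPKM, was above every control mouse, and the 5 other PZH mice, at 136 to 160 FPKM, were below every control mouse. Its log2 fold change was -0.40 (adjusted p = 0.0730) with all mice and -0.55 (adjusted p = 0.00284) without PZH 1, and after scaling -0.21 (adjusted p = 0.402) and -0.39 (adjusted p = 0.0156). Rpl5 and Rpl11, which form a particle with 5S RNA and bind the p53 regulator MDM2 when ribosome assembly is disturbed, had log2 fold changes of -0.21 (adjusted p = 0.213) and -0.22 (adjusted p = 0.227). Without PZH 1 these were -0.31 (adjusted p = 0.0222) for Rpl5 and -0.31 (adjusted p = 0.0781) for Rpl11 as deposited, and -0.16 (adjusted p = 0.160) and -0.15 (adjusted p = 0.317) after scaling.

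**Figure D4:**
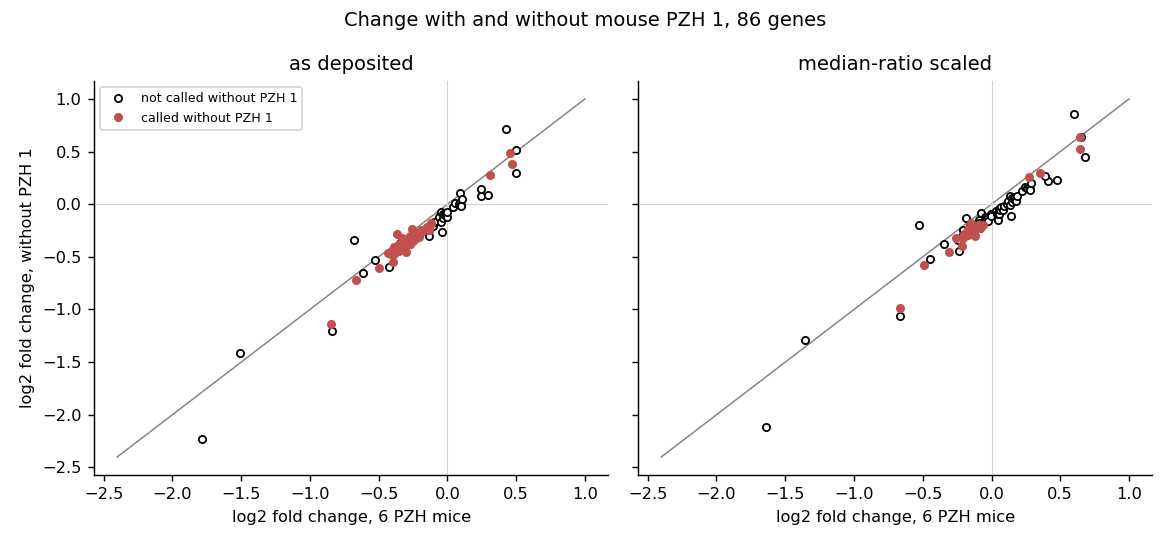
Log2 fold change of the 86 genes with all 6 PZH mice (x axis) and without PZH 1 (y axis), as deposited (left) and after scaling (right); the grey line marks equal values. Most points lie below the line, and filled points, called without PZH 1 at an adjusted p under 0.05, number 45 on the left and 23 on the right. As deposited, PZH 1 was the highest PZH mouse in 71 of these genes, so leaving it out lowers their PZH mean by construction.

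The genes of this family that are commonly used as reference genes in PCR were not called on either scaling. The log2 fold changes as deposited and after scaling were -0.24 and -0.05 for Rplp0, -0.23 and -0.05 for Rpl13a, -0.39 and -0.20 for Rps18, -0.01 and 0.17 for Rpl32, and 0.10 and 0.29 for Rps29. The adjusted p values ranged from 0.104 for Rplp0 to 0.954 for Rpl32 as deposited, and from 0.0629 for Rps29 to 0.841 for Rpl13a after scaling. A p above the threshold does not show that these genes were equal. Without PZH 1, Rplp0 was called lower as deposited (-0.32, adjusted p = 0.0134) but not after scaling (-0.17, adjusted p = 0.0937). PZH 1 was its highest PZH mouse, so a lower mean without it follows by construction. The spread of Rps18 was wide in both groups, 38.8 to 90.2 FPKM in PZH mice and 49.3 to 99.9 in control mice.

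Of the 4 paralogs, Rpl7l1 was the only one called with all mice, and its partner was not called. Rpl7 was at 99.2 to 181 FPKM in PZH mice and 120 to 146 in control mice, with a log2 fold change of -0.13 (adjusted p = 0.423). Rpl22l1, which can take the place of Rpl22, was at 8.59 to 23.0 FPKM with PZH 1 highest, against 8.81 to 13.1 in control mice (0.24, adjusted p = 0.322), and Rpl22 at 18.9 to 28.3 against 20.5 to 23.4 (-0.02, adjusted p = 0.899). Rps27l, a paralog of Rps27 that responds to p53, was at 92.4 to 141 FPKM against 88.9 to 126 (0.04, adjusted p = 0.848). Rpl36al, the autosomal paralog of Rpl36a, was at 91.7 to 135 FPKM against 112 to 123 (-0.12, adjusted p = 0.278), beside the rise of Rpl36a. Without PZH 1, Rpl7 (-0.25, adjusted p = 0.0157) and Rpl36al (-0.18, adjusted p = 0.0304) were called lower as deposited, but not after scaling (-0.10, adjusted p = 0.323, and -0.03, adjusted p = 0.744). The difference between a paralog and its partner was not tested.

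The largest log2 fold changes of the family were not called and came from genes whose values jumped between mice. Rpl23a, the protein at the tunnel exit that docks the signal recognition particle, was near 0 in PZH 2, PZH 5, PZH 6 and control mouse 5, at no more than 0.02 FPKM, and at 18.9 to 70.5 FPKM in the other mice (-1.78 ± 1.29 on the log2 scale, SE, adjusted p = 0.286). Rps27a, made as a fusion with ubiquitin, was listed at 0 in PZH 3, at 1.54 to 6.11 FPKM in PZH 1, 2, 5 and 6 and at 33.1 in PZH 4. In control mice it was at 67.0, 2.33, 16.8, 2.36, 63.6 and 2.42 FPKM (-1.51 ± 0.99 on the log2 scale, SE, adjusted p = 0.235). Rps13 was at 0.25 FPKM in control mouse 3 and at 5.10 to 17.7 FPKM in the other control mice, with a log2 fold change of 0.50 (adjusted p = 0.469). Rpl7a was at 0.99 to 20.2 FPKM in PZH mice and 4.11 to 21.8 in control mice (-0.68, adjusted p = 0.333). Rpl18 was at 12.8 to 26.5 FPKM in PZH mice and 17.3 to 44.5 in control mice (-0.53, adjusted p = 0.0956). Rpl3, which lies near the peptide-forming centre, was at 79.1 FPKM in PZH 1 and at 28.5 to 40.4 in the other PZH mice, against 13.4 to 53.5 in control mice (0.30, adjusted p = 0.461). Rpl21 was at 2.33 to 6.56 FPKM in PZH mice and 2.43 to 5.76 in control mice (0.24, adjusted p = 0.365), and both groups overlapped for all of these genes. The coefficient of variation over control mice had a median of 0.115 over the members and was above 0.5 in 6, namely Rpl23a, Rps27a, Rpl7a, Rps13, Rps27rt and Rpl36a-ps1.

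All 6 of these genes have near-identical copies in the genome. Ribosomal protein mRNAs have been copied back into mammalian genomes many times, and 81 of the 86 members had at least 1 other gene in GENCODE M21 that matched at 95% identity or more over at least 80% of the coding sequence of the main transcript or of the longest listed one, with a median of 5 such genes. Of 631 such pairs, 596 were with pseudogenes. Rpl21 had 57, Rpl7a 32, Rpl29 28 and Rps2 26, and the 18 members with 10 or more copies had a median of 69.98 FPKM against 77.8 for the others. Reads of these copies and of the gene can be assigned to either by an assembler, so the values of such members are uncertain. Across the 86 genes the number of copies had a Spearman correlation of 0.23 with the coefficient of variation of the control mice and of 0.0072 with the level, both given as descriptions over genes that share libraries. The 5 members without such a copy included Rpl8, Rps19bp1, Rps27l and Rps3.

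Rps27 and its retrocopy Rps27rt had values that varied in opposite directions across the mice. Rps27, a zinc-binding protein of the small subunit, has 4 exons in the transcript shown, on the minus strand of chromosome 3 (90212671 to 90213651), and Rps27rt has 1 exon and lies on the minus strand of chromosome 9 (114982366 to 114982739). Their coding sequences of 252 bases in GENCODE M21 on GRCm38 differ at 0 positions, so both are shown by 1 line.
Rps27 and Rps27rt: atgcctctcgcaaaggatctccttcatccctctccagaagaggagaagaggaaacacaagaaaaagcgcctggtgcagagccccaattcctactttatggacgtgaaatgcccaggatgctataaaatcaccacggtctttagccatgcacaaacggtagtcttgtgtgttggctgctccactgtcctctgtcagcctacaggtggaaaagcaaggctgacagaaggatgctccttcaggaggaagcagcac
Rps27 was at 101, 29.4, 33.4, 27.2, 71.2 and 1.77 FPKM in PZH mice 1 to 6 and at 68.1, 102, 67.7, 76.8, 5.32 and 81.1 in control mice 1 to 6. Rps27rt was high where Rps27 was low, at 11.1, 47.4, 50.6, 36.9, 13.4 and 70.3 FPKM in the PZH mice and 34.0, 6.65, 24.6, 34.5, 84.2 and 8.64 in the control mice. Neither was called alone (log2 fold changes -0.84, adjusted p = 0.451, and 0.43, adjusted p = 0.598). Their sum was steadier, at 64.1 to 112 FPKM in PZH mice and 89.5 to 111 in control mice, with a coefficient of variation over the 12 mice of 0.172 against 0.626 for Rps27 and 0.702 for Rps27rt. The sum, chosen after the values were seen, differed by -0.28 ± 0.12 on the log2 scale (SE, adjusted p = 0.0704) as deposited and -0.10 (adjusted p = 0.618) after scaling. The same sums for Rpl10 with Rpl10-ps3, Rpl9 with Rpl9-ps6 and Rps12 with Rps12-ps3 gave -0.35 (adjusted p = 0.0438), -0.30 (adjusted p = 0.0515) and -0.10 (adjusted p = 0.526) as deposited, and none was called after scaling.

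**Figure D5:**
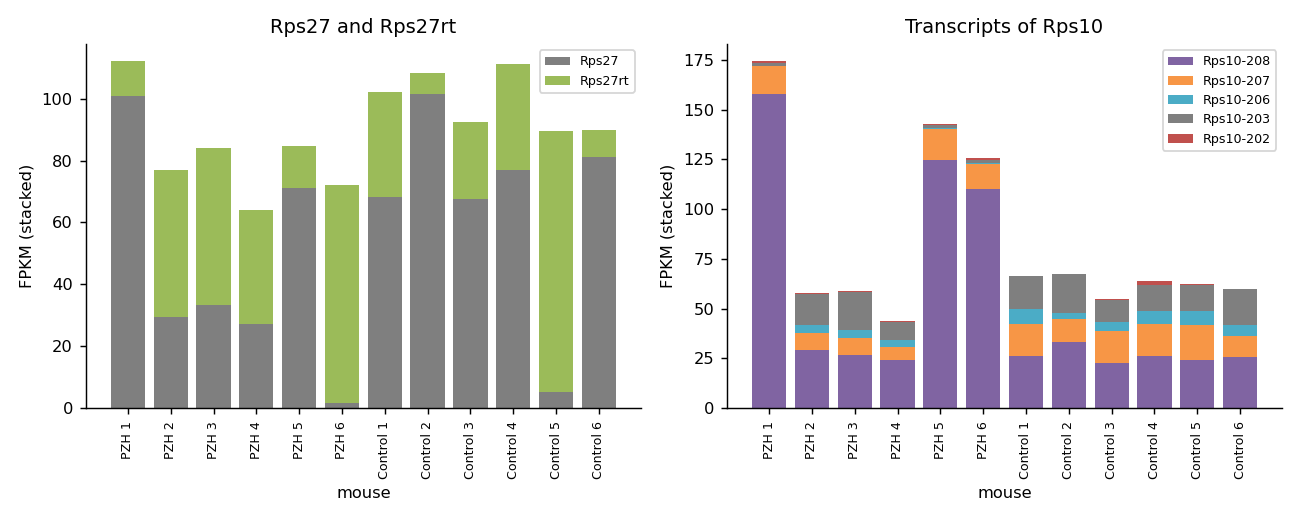
FPKM of each mouse (y axis, stacked from 0) for Rps27 and Rps27rt (left) and for the 5 listed transcripts of Rps10 (right), with the 12 mice on the x axis. On the left the 2 colours trade places while the total stays between 64.1 and 112 FPKM; on the right Rps10-208 stands at 110 to 158 FPKM in PZH 1, 5 and 6 and at 22.8 to 33.2 FPKM in the 9 other mice.

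Rps10, a protein of the small subunit that is modified on stalled ribosomes, had 2 levels within the PZH group. It was at 174, 143 and 125 FPKM in PZH 1, 5 and 6 and at 57.7, 58.98 and 43.9 in PZH 2, 3 and 4, against 55.0 to 67.5 in control mice. The gene differed by 0.50 ± 0.30 on the log2 scale (SE, adjusted p = 0.2005) as deposited and by 0.68 (adjusted p = 0.109) after scaling. Leaving out PZH 4, the lowest mouse, brought the scaled difference of Rps10 to 0.86 (adjusted p = 0.0399), and leaving out PZH 1, the highest, brought it to 0.45 (adjusted p = 0.204). The transcript Rps10-208, of 5 exons (chromosome 17, 27630465 to 27634475), carried the high values, and Rps10-203 was at 1.18, 1.58 and 1.33 FPKM in the same 3 mice against 8.96 to 19.7 in the other 9. Rps10-206 was lower in PZH mice (log2 fold change -1.37, adjusted p = 0.0401), with 0.103 to 0.506 FPKM in these 3 mice, 3.39 to 4.34 in the other PZH mice and 3.17 to 7.80 in control mice. The labels and the methods name nothing that sets PZH 1, 5 and 6 apart.

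At the level of transcripts, 18 of the 196 members fell and 3 rose, 9.18% and 1.53%, with 14.0% and 5.73% of all transcripts. After scaling, 7 were higher (8.58% of all transcripts) and 6 lower (8.33% of all transcripts). A 2-fold change with an adjusted p under 0.05 was found for Rps10-206 and for Rpl32-202, a minor transcript of the reference gene Rpl32. Rpl32-202 was at 3.03 to 7.87 FPKM in PZH mice and 4.22 to 23.8 in control mice, where control mouse 1 lay within the PZH range (log2 fold change -1.30, adjusted p = 0.0182, and -1.14, adjusted p = 0.0328, after scaling). It made up 6.21% of the Rpl32 level, and the main transcript Rpl32-201 had a change of 0.09 (adjusted p = 0.714). With the unadjusted p of the study's rule, 6 member transcripts passed the 2-fold threshold, as did 3.23% of all transcripts. One of the 6, Rps2-208, was listed at 0 in all PZH mice and in control mice 1, 2 and 6, and at 55.9, 29.4 and 73.2 FPKM in control mice 3, 4 and 5. In 8 member transcripts the groups did not overlap and PZH was lower, as in 8.58% of all transcripts, and in 0 was PZH higher, against 3.41% of all transcripts.

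The start of the genes was compared for the C and T tract. RefSeq listed a start for 62 of the 86 members on GRCm38.p6. A window of 15 bases before to 15 bases after each listed start was searched on the sense strand. A gene with several listed starts was counted when any of them met the condition. A run of 6 or more C or T that reached within 5 bases of the start was found in 32 of 62 members (51.6%) and in 23.0% of all 27025 genes. With runs anywhere in the window, a count added after seeing the data, these were 38 members (61.3%) and 32.7% of all genes. The letters CTTTC on the sense strand, which can be part of such a run, were found in 27.4% of the members and 4.8% of all genes, and on either strand in 30.6% and 8.8%. The windows of genes described above are shown 5′ to 3′, to set the genes that rose beside those that fell. Capitals mark the longest run of C and T that reached within 5 bases of the start, the first of several equal runs. For a gene with several listed starts, the window with the longest such run was chosen.
Rpl41, rose, chr10:128549154-128549183, minus strand: cacacgggccggCTCggaagtgacgacacc
Rpl36a, rose, chrX:134585639-134585668, plus strand: gtgcacccaggcaccgCCTataaacttccg
Rpl28, fell, chr7:4792950-4792979, plus strand: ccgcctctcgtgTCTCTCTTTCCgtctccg
Rplp2, fell as deposited, chr7:141447636-141447665, plus strand: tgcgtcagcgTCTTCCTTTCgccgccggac
Rpl37, fell as deposited, chr15:5116598-5116627, plus strand: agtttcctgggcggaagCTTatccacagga
Rpl7l1, fell, chr17:46782642-46782671, minus strand: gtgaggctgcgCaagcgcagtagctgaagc
Rps19bp1, fell, chr15:80264292-80264321, minus strand: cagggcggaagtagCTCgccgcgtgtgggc
Rps10, chr17:27635230-27635259, minus strand: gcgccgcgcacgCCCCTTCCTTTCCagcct
Rps6, chr4:86857353-86857382, minus strand: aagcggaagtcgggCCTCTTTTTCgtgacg
Rpl28 held a run of 11 and Rps10 of 13, whereas the runs in capitals of Rpl41 and Rpl36a were of 3, and Rpl36a held a run of 5 and Rpl37 a run of 6 farther from their starts. Of the 32 members with such a run of 6 or more, 6 fell and 0 rose as deposited (median log2 fold change -0.23), and 1 fell and 0 rose after scaling (median -0.04). Of the 30 others, 6 fell and 2 rose as deposited (median -0.14), and 2 fell and 3 rose after scaling (median 0.04). Beside these counts 32.1% of all genes fell and 12.7% rose as deposited, and 19.7% and 19.3% after scaling, and the difference between both sets of members was not tested. A match says only that these letters are in the window, and a start that differs in liver would move it.

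The genes around the ribosome were counted beside its proteins. Of 4 ribosomal proteins outside the symbol pattern (median -0.19), 1 fell as deposited and 0 after scaling, with 0 higher on either. The fall was that of Rack1, a scaffold on the small subunit, by 0.38 on the log2 scale (adjusted p = 0.0425). Of 52 measured genes of RNA polymerase I and ribosome assembly, 47 fell and 0 rose as deposited, with a median log2 fold change of -0.72, and 42 fell after scaling, with a median of -0.57. Nop56, a box C/D particle protein (-1.34, adjusted p = 0.00546), Ppan, a large subunit assembly factor (-1.09, adjusted p = 3.97e-05), and Rrp9, a processing factor of the U3 particle (-1.09, adjusted p = 1.30e-05), changed the most. Of 28 initiation factors, 23 fell as deposited (median -0.51) and 13 after scaling (median -0.33), none rose, and Eif6, which keeps the subunits apart and acts in large subunit maturation, was at 16.4 to 26.4 FPKM in PZH mice and 46.45 to 81.3 in control mice (-1.53, adjusted p = 1.20e-05). Of 19 elongation factors and other mRNAs with a TOP motif, 14 fell as deposited (median -0.39) and 8 after scaling (median -0.21), led by Nap1l1 (-0.90), Impdh2 (-0.87) and Npm1 (-0.79). The shares of members called lower, 19.8% as deposited and 3.49% after scaling, stood beside 90.4% and 80.8% in the list of assembly genes. Over all genes, 32.1% fell and 12.7% rose as deposited, and 19.7% fell and 19.3% rose after scaling. The difference between these lists was not tested, and the lists were written with earlier results of these data known.

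Of all genes, 32.1% fell and 12.7% rose as deposited, and 19.7% fell and 19.3% rose after scaling, beside which the counts of the following lists stand. Of 20 genes of the mTOR pathway, Larp1 and the S6 kinases, 9 fell and 2 rose as deposited (median -0.28), and 7 fell and 3 rose after scaling (median -0.11). Eif4ebp1, the inhibitor of cap-dependent translation (-1.06, adjusted p = 4.12e-05), and the stress-induced mTOR inhibitors Ddit4 (-1.31, adjusted p = 0.000138) and Sesn2 (-0.94, adjusted p = 4.84e-05) were lower. The rises as deposited were those of Deptor, an inhibitor bound to mTOR (0.64, adjusted p = 0.000520), and of Sesn1, a relative of Sesn2 (0.39, adjusted p = 0.0137). Of 11 genes of the Myc family, 3 fell and 1 rose as deposited (median -0.08), and 1 fell and 1 rose after scaling (median -0.05). Mlxipl, the sugar-responsive factor ChREBP, rose by 1.12 on the log2 scale (adjusted p = 0.000417), and Max, the partner of Myc, fell by 0.56 (adjusted p = 0.000504). Myc itself was at 1.102 to 8.91 FPKM in PZH mice and 3.89 to 9.45 in control mice (-0.89, adjusted p = 0.0564). Of 78 genes of mitochondrial ribosomal proteins, 25 fell and 8 rose as deposited (32.1% and 10.3%, median -0.14), and 6 fell and 15 rose after scaling (median 0.03), with Mrps18b (-0.90), Mrpl52 (-0.59) and Mrps23 (-0.56) the largest changes. PZH 1 was the highest PZH mouse in 4 of the 4 ribosomal proteins outside the pattern, in 8 of 19 elongation factors and TOP mRNAs, in 13 of 28 initiation factors, in 19 of 52 assembly genes, in 35 of 78 mitochondrial ribosomal protein genes, in 1 of 20 genes of the mTOR list and in 1 of 11 of the Myc family.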

How the data were processed

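The authors extracted liver RNA with Trizol, removed ribosomal RNA and made strand-specific libraries. Per the labels and methods, reads were trimmed with Trimmomatic, mapped with HISAT2 to GRCm38 and assembled with StringTie. The authors deposited FPKM per transcript, and how reads with several positions were treated is not given in the sources used here. Low values were whole multiples of a common step for 19.7 to 27.1% of values per mouse, so fragment counts and depth remain unknown. The counting error of a value could therefore not be estimated. Transcripts were joined to genes by GENCODE M21 (29876 of 29883 matched). Log2(FPKM + 1) was compared by limma 3.58.1 in R 4.3.3, two-sided, with Benjamini-Hochberg adjustment over all 14188 genes or 29883 transcripts, n = 6 mice per group, without a covariate, after a test on simulated data. Tables were made in Python 3.11.15 (pandas 2.3.3) and figures with matplotlib 3.10.9. Copies were found with blastn from the coding sequences of the main and of the longest listed transcript. The lncRNA table was not used. No 2 mice had identical values, and replicates are taken as separate mice from their labels. The members, gene lists and tests were chosen with earlier results of these data known. Named genes were the 8 largest rises and falls, the 3 highest levels, the stalk, reference, 5S particle and paralog genes, Rps6, Rps27a, Rps19bp1, 2-fold called transcripts and up to 3 called genes per related list. Other genes were named after their values were seen, and a few named by the rule are not reported here. The alternatives are listed with their effect in the closing section.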

Additional observations from a re-analysis of the deposited data

Results flagged for a closer look

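For the named genes and called transcripts, and for the share and the mean of all members, the highest or lowest mouse of each group was compared with the rest by Dixon's test at the 95% level, from the gap to the nearest mouse over the range of the group. Of 74 groups, 14 held a mouse beyond it, where chance gives about 1 in 20, and the groups are not independent because the members move together. PZH 1 was the high mouse in 8 of them: Rpl3 at 79.1 FPKM, Rps12 at 359 FPKM, Rpl26 at 381 FPKM, Rplp1 at 302 FPKM, Rpl32 at 208 FPKM, Rps6 at 276 FPKM, Rpl7 at 181 FPKM and Rpl22 at 28.3 FPKM. PZH 1 was also the high mouse in the mean log2(FPKM + 1) of the members, at 6.27 against 5.72 to 5.88 in the other PZH mice. Rps27a stood apart in PZH 4 at 33.1 FPKM. In control mice, Rps27rt was high at 84.2 FPKM and Rps27 low at 5.32 FPKM in the same mouse, control 5. Rpl7a was high in control 4 at 21.8 FPKM, and Rps12 was low in control 3 at 211 FPKM.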

How the results depend on the processing

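The number and the balance of the calls changed with the scaling, while the median member stayed below 0. As deposited 20 members were called (3 higher, 17 lower), with 7 after median-ratio scaling (4 higher, 3 lower) and 34 after rescaling to an equal FPKM sum (3 higher, 31 lower). On the scaled values 6 were called with a mean FPKM of at least 1 (3 higher, 3 lower). The median log2 fold change of the members moved from -0.221 to -0.0373 with median-ratio scaling. Of the transcripts 21 were called as deposited, 13 with a pseudocount of 0.1 and 13 after median-ratio scaling (7 higher, 6 lower). Leaving out each mouse in turn gave 16 to 45 called genes as deposited and 6 to 23 after scaling, with the highest counts without PZH 1, and 12 to 33 called transcripts, lowest without control mouse 5. The other settings (pseudocount, filter, moderation and main transcript only) kept the gene count as deposited between 14 and 21. The share of the members in the FPKM sum differed by -0.354 percentage points as main value and by -0.461 to -0.283 with a mouse left out. Same-numbered mice of the groups did not deviate together (correlations -0.0784 to 0.0929, and 1 of 12 mice correlated best with its own number). These values cannot show whether such mice shared more than a number, for example in handling. The replicate block gave 19 genes as deposited, 7 after scaling and 10 transcripts. Of the named genes, 51 values that were not called crossed 0 under an alternative. Rpl10a lost its call in 12 of its alternatives as deposited. Depth is not known from FPKM, and the cause of these changes was not tested.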
